A study of Mus musculus with 6 samples.

Results

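The goblet cell products and mucins described here are 9 genes: the gel-forming mucin Muc2, the mucus proteins Fcgbp and Zg16, the trefoil peptide Tff3, the folding enzyme Agr2, the secreted peptides Spink4 and Retnlb, and the membrane mucins Muc3 and Muc13. They were taken by name, from probe sets (groups of short probes on the array for 1 transcript) that the platform annotation ties to a single gene, and the brightest probe set stood for each gene. All 9 had such a probe set, out of 18193 genes on the array that did. Of the 9, 8 were bright enough to be tested, among 13042 genes in all. Retnlb was not.

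The arrays measured RNA from whole mouse small intestine in a study of Fitm2 (FIT2), which encodes an endoplasmic reticulum protein of lipid droplet formation. Control mice were L/L, which in usual notation are homozygous for a loxP-flanked allele, and KO mice were ROSA26CreERT2 L/L. The CreERT2 recombinase is activated by tamoxifen and the ROSA26 locus is active in most cell types, so the deletion was not restricted to goblet cells. Mice of both genotypes are labelled as tamoxifen-treated, at 100 µg per g by intraperitoneal injection on days 1, 2 and 3, with tissue taken on day 2, 3 or 5. Only KO mice carried CreERT2, so loss of Fitm2 and the presence of active CreERT2 cannot be told apart in the genotype difference. Whether mice killed on day 2 or 3 had all injections is not stated, nor are age, sex or strain. Each array held 1 pool of RNA: 6, 6 and 8 L/L mice for days 2, 3 and 5, and 7, 6 and 7 KO mice. No group had a second pool. The 3 days are therefore the only repeats of the genotype difference. A p-value over them sets the mean difference against how far it varied between days. Only 6 arrays limit the precision of every value.

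Goblet cells are secretory cells scattered along crypts and villi. They fill granules with Muc2, a heavily O-glycosylated polymer that swells into the mucus gel on release, together with Fcgbp, Zg16 and Tff3. The secretory fate needs the transcription factor Atoh1, and Spdef drives goblet cell maturation. Membrane mucins such as Muc3 and Muc13 are instead anchored in the apical membrane, largely that of enterocytes, where they form the glycocalyx.

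The targeted gene Fitm2 read 193, 223 and 211 on the L/L arrays of days 2, 3 and 5, against 123, 127 and 120 on the KO arrays, lower each day (mean log2 -0.76; limma adjusted p = 0.125); where its probes lie relative to the deleted part is not stated. Enterocyte genes gave summed intensities between 150430 and 160130 over 9 genes on the 6 arrays, whereas 0 of 5 large intestine markers passed the intensity filter, with no value above 38.8. Of 9 stomach markers written, 8 had a probe set of a single gene and 6 passed. Their highest single intensity was 354, that of Tff1, and Gkn2 and Atp4a did not pass. Distal small intestine genes were uneven between pools. Slc10a2 read 255, 118 and 243 for L/L by day, against 317, 274 and 447 for KO. Fabp6 read 2952, 5169 and 5460, against 4199, 6239 and 5187. The 4 distal genes had median KO minus L/L values of 0.17, 0.04 and -0.50 by day, with 1 higher and 1 lower on all 3 days. The medians of 6 proximal genes were -0.07, 0.00 and 0.01. Whether the pools differed in intestinal region was not tested. Array medians were similar, from 57.8 to 59.8. Intensities here are linear values, and differences are given on the log2 scale, where 1 is a doubling.

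Promoters of 5 of the 9 genes were in the RefSeq table used (assembly GRCm38.p6), each running from 250 bases before to 50 after the annotated start. The 3 shown belong to Muc2, Fcgbp and Agr2, which were lower on day 3 than on day 2 in L/L and higher in KO. Each lies on the plus strand, at chr7:141690090-141690389, chr7:28070986-28071285 and chr12:35992675-35992974. Capitals mark matches, on either strand, to the E-box CAGCTG (bound by basic helix-loop-helix factors such as Atoh1), the GATA motif AGATAA and the CDX motif TTTATNG.
Muc2: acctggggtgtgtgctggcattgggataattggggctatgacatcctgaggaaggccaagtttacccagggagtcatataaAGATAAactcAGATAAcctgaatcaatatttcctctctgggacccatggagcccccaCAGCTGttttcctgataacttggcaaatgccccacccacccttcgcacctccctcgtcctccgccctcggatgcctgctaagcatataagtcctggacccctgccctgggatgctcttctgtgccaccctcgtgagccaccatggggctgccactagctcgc
Fcgbp: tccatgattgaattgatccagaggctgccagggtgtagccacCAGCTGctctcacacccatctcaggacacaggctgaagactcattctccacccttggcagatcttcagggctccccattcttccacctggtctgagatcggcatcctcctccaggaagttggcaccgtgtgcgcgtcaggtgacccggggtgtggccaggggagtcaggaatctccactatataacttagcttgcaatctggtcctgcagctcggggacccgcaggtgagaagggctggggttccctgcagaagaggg
Agr2: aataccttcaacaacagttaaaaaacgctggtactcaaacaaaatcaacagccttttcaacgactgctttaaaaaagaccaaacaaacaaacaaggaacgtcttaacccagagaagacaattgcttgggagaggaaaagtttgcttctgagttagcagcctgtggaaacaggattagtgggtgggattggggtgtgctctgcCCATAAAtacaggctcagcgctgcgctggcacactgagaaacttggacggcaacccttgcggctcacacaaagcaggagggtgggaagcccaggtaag
The Muc2 promoter held 1 E-box and 2 GATA matches, the Fcgbp promoter 1 E-box and the Agr2 promoter 1 CDX match, none overlapping another. No match to these motifs or to the FOXA motif TGTTTAC was found in these windows of Muc3 or of the 2 annotated starts of Muc13. Of 32851 promoters of this length, 16.3% held the E-box, 11.2% the GATA motif, 10.9% the CDX motif and 3.65% the FOXA motif. No motif was shared by all 3 promoters.

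**Figure D1:**
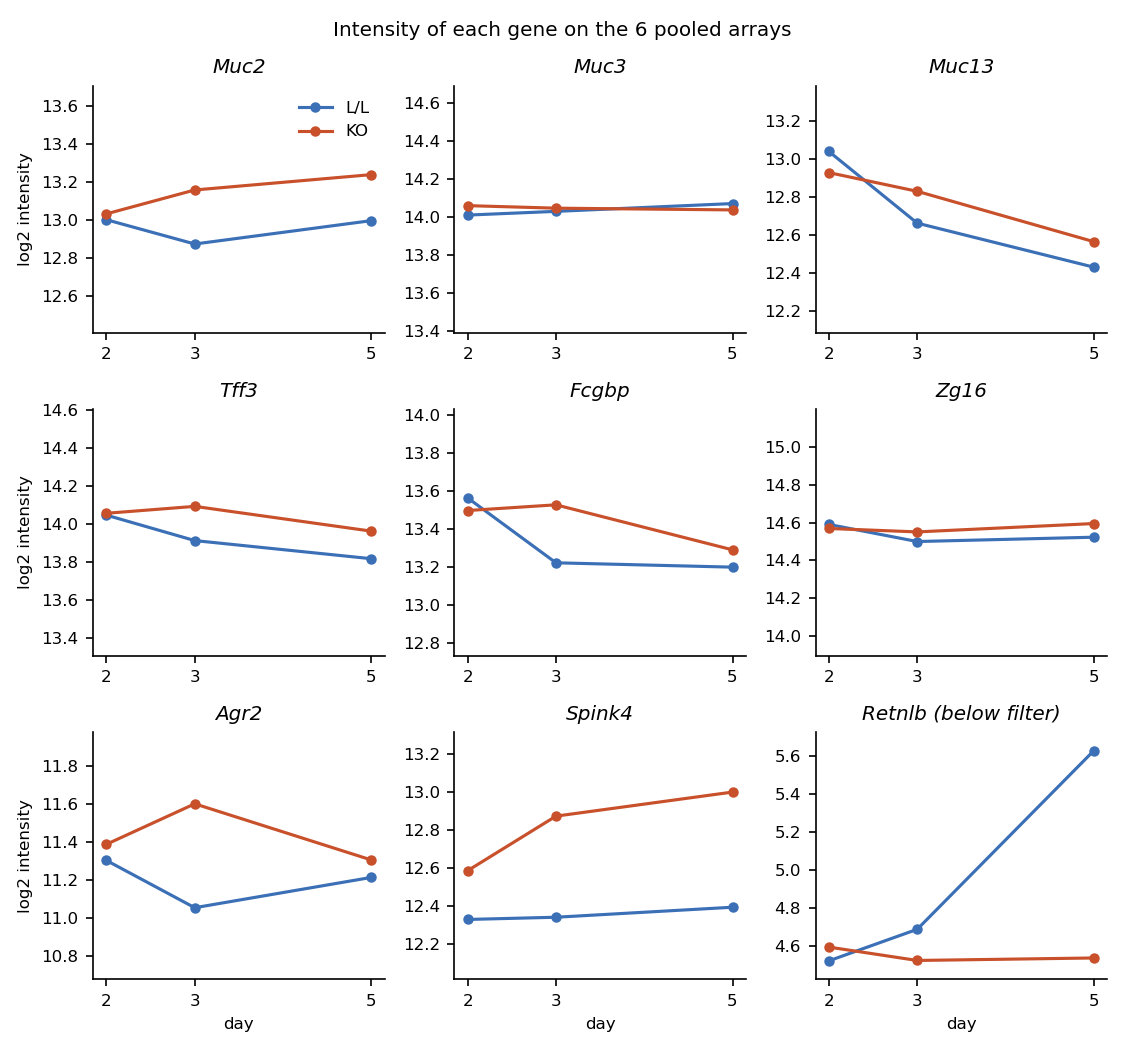
Log2 intensity (vertical axis, spanning the same width in every panel) of each gene by day (horizontal axis) on the 3 L/L arrays (blue) and 3 KO arrays (orange), with 1 pooled array per point and no error bar. The lines of Spink4 and Muc2 are farther apart after day 2, Muc13 lies lower on day 5 in both genotypes, and Muc3 and Zg16 are nearly flat.

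Spink4, which encodes a Kazal-type serine peptidase inhibitor secreted by goblet cells, showed the largest mean genotype difference of the 8 tested genes. The L/L arrays of days 2, 3 and 5 gave intensities of 5142, 5184 and 5377. The KO arrays gave 6146, 7500 and 8189. The control arrays were nearly level while the KO arrays were higher on each later day, and the genotypes did not overlap. KO minus L/L was 0.26, 0.53 and 0.61 on the 3 days, a mean 1.38-fold difference (log2 0.47 ± 0.18, SD over 3 days). By limma it did not pass after Benjamini-Hochberg adjustment over all genes (SE 0.09, 95% interval 0.24 to 0.69 before adjustment, adjusted p = 0.363). Among the genes tested, 3.71% had a higher difference on day 2, 1.33% on day 3 and 4.74% on day 5. Leaving out single days gave means between 0.40 (without day 5) and 0.57 (without day 2).

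Muc2, the polymer that builds the mucus gel, was slightly higher in KO on each day. L/L arrays read 8192, 7498 and 8166 on days 2, 3 and 5, and KO arrays 8371, 9134 and 9661. The lowest KO value, on day 2, was just above the highest L/L value, also on day 2, so the ranges were separate by a narrow margin. The log2 difference was 0.03, 0.28 and 0.24, with a mean of 0.19 ± 0.14 (SD over 3 days). In limma its 95% interval ran from -0.01 to 0.38 (adjusted p = 0.41).

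Agr2, an endoplasmic reticulum disulfide isomerase required for making Muc2, differed mainly on day 3. L/L intensities by day were 2527, 2126 and 2375, and KO intensities 2681, 3108 and 2532. On day 3 the L/L value was the lowest of the 6 and the KO value the highest, and the day 5 pools differed by little. The log2 differences were 0.09, 0.55 and 0.09, with a mean of 0.24 ± 0.27 (SD over 3 days; limma adjusted p = 0.421). Only 1.27% of genes had a higher difference on day 3. Without day 3 the mean was 0.09. A dimmer Agr2 probe set, of a type that can bind several transcripts, gave 389 for L/L against 443 for KO on day 3, a difference of 0.19.

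Fcgbp, a large mucus protein that associates with the Muc2 gel, also differed most on day 3. L/L arrays read 12123, 9565 and 9415 by day, while KO arrays read 11578, 11822 and 10029. The highest of all 6 values was that of L/L on day 2, so the genotypes overlapped. KO minus L/L was -0.07, 0.31 and 0.09, with a mean of 0.11 ± 0.19 (SD over 3 days; limma adjusted p = 0.586). Without day 3 the mean was 0.01.

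Tff3, a trefoil peptide of mucosal repair, was close to equal on day 2, at 16943 for L/L against 17059 for KO. On day 3 the arrays read 15440 and 17495. The day 5 arrays read 14450 and 15982. KO was the higher on all 3 days, but its day 5 value lay below that of L/L on day 2, and the mean difference was 0.11 ± 0.09 (SD over 3 days; limma adjusted p = 0.486). Zg16, a lectin of the mucus that binds Gram-positive bacteria, lay between 23167 and 24740 on all 6 arrays, with log2 differences of -0.02, 0.05 and 0.07. Its brightest probe set is of the type that can bind several transcripts. A dimmer one, designed to match a single transcript, differed by -0.03, 0.15 and 0.16 by day. Its mean was 0.09, against 0.03 for the brightest. Another dimmer one, again of the type that can bind several transcripts, differed by 0.01, 0.00 and 0.11. The highest intensity in the whole table was 1.26 times that of Zg16 and 1.78 times that of Tff3, so these probe sets read near the top of the measured range; whether that narrowed their differences was not tested.

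The membrane mucins did not separate the genotypes. Muc3, the brush border mucin, lay between 16512 and 17221 on all arrays, with differences of 0.05, 0.02 and -0.03 and a limma 95% interval of -0.14 to 0.17 for the mean (adjusted p = 0.944). It too was bright, with the table's maximum at 1.81 times its highest value. Muc13 arrays of L/L read 8432, 6490 and 5526, and those of KO 7805, 7290 and 6065, so L/L was the brighter on day 2 only. Its genotype difference was -0.11, 0.17 and 0.13 (mean 0.06, 95% interval -0.14 to 0.27; limma adjusted p = 0.729). A second Muc13 probe set, of the type designed to match a single transcript, gave -0.04, -0.04 and 0.25, so the 2 disagreed in sign on day 3.

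Retnlb (RELMβ), a goblet cell peptide induced by interleukin-4 and interleukin-13, was dim. L/L arrays by day read 23.0, 25.8 and 49.5, and KO arrays 24.1, 23.0 and 23.2. Of these values 5 lay below the filter threshold of 38.9 (the 40th percentile of probe sets), and L/L on day 5 was the exception. With the other values raised to that threshold, L/L on day 5 was at least 1.27-fold higher than KO, on 1 array each and with no test.

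**Figure D2:**
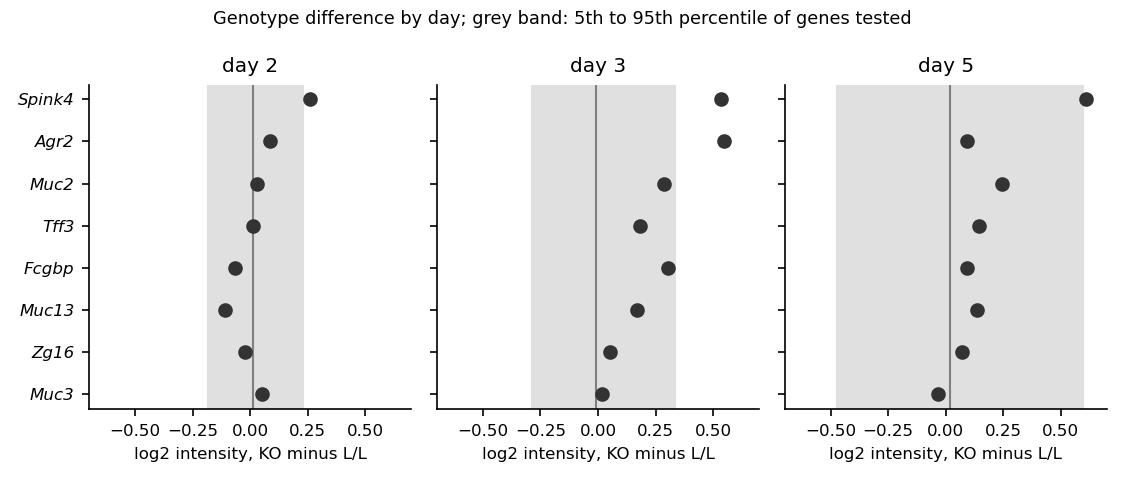
KO minus L/L log2 intensity (horizontal axis) of the 8 tested genes on each day, with 1 pooled array per genotype and day; the grey band spans the 5th to 95th percentile of the 13042 genes and the grey line their median. Day 2 points lie close to 0 except Spink4 (0.26), all 8 are above 0 on day 3, and the wider band on day 5 holds every point but Spink4 (0.61).

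The 8 genes had median KO minus L/L values of 0.02, 0.23 and 0.11 by day, beside 0.01, -0.01 and 0.02 over all genes tested. KO was the higher for 5 of 8 on day 2, for 8 on day 3 and for 7 at day 5. The share of all genes that were higher in KO on a single day was not counted. Muc2, Tff3, Agr2 and Spink4 were higher on all 3 days, 4 of 8, where 22.1% of all genes were, and 0 of 8 were lower on all 3 days (17.4% of genes). The 3 KO arrays all lay above the 3 L/L arrays for Muc2, Agr2 and Spink4, 3 of 8, where 7.48% of genes did so. For Agr2 the margin was very narrow, 2532 for KO on day 5 against 2527 for L/L on day 2. For Muc2 it was 8371 against 8192, both on day 2. The members were picked with earlier results of these data known, and goblet cell genes share a cell type, so these counts are a description. In bulk tissue, more goblet cells and more RNA per goblet cell cannot be told apart.

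In the limma test over the 3 days, 0 of the 8 passed at an adjusted p of 0.05, where 0.023% of all genes did (3 of 13042). Before adjustment 1 of 8, Spink4, was under 0.05, against 12.3% of all genes (1603), so the share of members is close to the background. For the change of the genotype difference with day, 0 of 8 passed, where 1.23% of genes did (160), and 0 of 8 had an unadjusted p under 0.05, where 18.4% of genes did (2404). The steepest was Spink4, at 0.11 per day (SE 0.05; limma adjusted p = 0.356). On a single day, where 1 array a group allows no test, 0 of 8 differed by 1.5-fold or more on day 2 (0.537% of genes). Day 3 had 0 of 8 (1.6%), and day 5 had 1 (8.29%). That gene was Spink4, at 1.52-fold; with arrays centred on their median it was 0.58 on the log2 scale, just under the 1.5-fold bound of 0.585.

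Within L/L, the question was how the genes behaved with day in mice without Cre. Muc13 was the only one of the 8 tested genes past 1.5-fold, 1.53-fold lower on day 5 than on day 2 (log2 -0.61), and 98.5% of genes tested had a higher value of that difference. From day 2 to day 3 it differed by -0.38 and from day 3 to day 5 by -0.23, so both steps ran downwards. The second Muc13 probe set gave 2523, 1945 and 1175 for L/L by day, against 2446, 1895 and 1396 for KO, a log2 difference from day 2 to day 5 of -1.10 in L/L and -0.81 in KO. Both probe sets thus gave a lower Muc13 on day 5 in both genotypes, by different amounts.

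The other L/L differences were smaller. From day 2 to day 3, 6 of 8 genes were lower, led after Muc13 by Fcgbp (-0.34) and Agr2 (-0.25), and 0 of 8 differed by 1.5-fold (1.62% of genes). How many of all genes were lower was not counted. From day 3 to day 5, 0 of 8 did (1.97%), or 1 (Muc13, -0.73) without probe sets shared between transcripts; Agr2 (0.16) and Muc2 (0.12) were back near their day 2 values. From day 2 to day 5 it was 1 of 8, Muc13 (2.92%), with Fcgbp at -0.36, Tff3 at -0.23, and Muc2, Muc3, Zg16, Agr2 and Spink4 between -0.09 and 0.06. The median over the 8 was -0.13 from day 2 to day 3 and -0.08 from day 2 to day 5, beside 0.03 and -0.01 over all genes.

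The day 3 values differed in direction between the genotypes for several genes, a contrast that was not tested. Muc2, Tff3, Fcgbp and Agr2 were lower on day 3 than on day 2 in L/L and higher in KO, 4 of 8 genes, where 15% of all genes did so. In KO the differences were 0.13 for Muc2, 0.04 for Tff3, 0.03 for Fcgbp and 0.21 for Agr2. The positive genotype differences of Muc2 and Agr2 on day 3 therefore combined a lower L/L value and a higher KO value. Those of Tff3 and Fcgbp lay mainly in the lower L/L value, -0.13 and -0.34 from day 2 to day 3. All 4 rest on 1 L/L pool and 1 KO pool. Spink4 in KO was 0.29 higher on day 3 and 0.41 higher on day 5 than on day 2.

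Taking both genotypes as repeats of a day difference, limma called 0 of 8 members for day 3 against day 2 (0% of genes) and 0 of 8 for day 5 against day 2 (0%). Unadjusted p under 0.05 was reached by 0 of 8 members for day 3, against 9.78% of genes (1275). For day 5 it was reached by 21.1% of genes and by 2 members, Muc13 (log2 -0.49, 95% interval -0.74 to -0.23; adjusted p = 0.126) and Fcgbp (-0.29, 95% interval -0.57 to -0.00; adjusted p = 0.231), in the same limma fit.

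**Figure D3:**
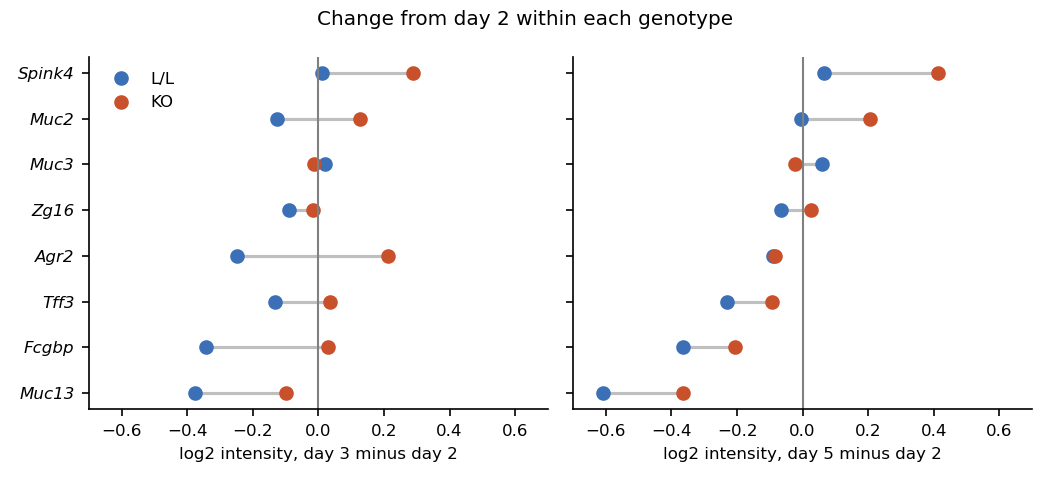
Log2 intensity on day 3 minus day 2 (left) and day 5 minus day 2 (right) for each of the 8 tested genes, in L/L (blue) and KO (orange), with 1 pooled array per point and no error bar. On day 3 the KO point lies to the right of the L/L point for every gene except Muc3, and Muc13 is leftmost in L/L on both days. How many of all genes had the points in that order was not counted.

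Lists of related genes are set beside all genes tested, of which 22.1% were higher and 17.4% lower in KO on all 3 days, 0.023% passed the limma test over the 3 days and 1.23% that for the change with day. Of 23 further goblet cell genes, all tested, 11 were higher in KO on all 3 days and 0 lower on all 3, with medians of 0.04, 0.17 and 0.05 by day. None passed over the 3 days, and 1 of 23, the membrane protease Bace2, passed for the change with day. Bace2 by day read 112, 92.5 and 72.0 for L/L, against 109, 122 and 158 for KO, so the genotypes parted over time (0.39 per day, SE 0.05; limma adjusted p = 0.0404). Its call was lost with the mean of its probe sets (0.11 per day; adjusted p = 0.231) and without the intensity filter (adjusted p = 0.169). Mean differences were 0.58 for Oit1, 0.50 for Bace2, 0.30 for Ramp1 and 0.29 for Tspan13. With the mean of each gene's probe sets they were 0.18 for Bace2 and 0.04 for Ramp1. Without day 5 they were 0.26 for Oit1, 0.18 for Bace2 and 0.18 for Tspan13. Oit1, known as an oncoprotein-induced transcript, stood at 276, 404 and 379 for L/L by day, against 313, 508 and 882 for KO, so most of its difference came on day 5.

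Of 11 regulators of goblet cell fate, 0 passed either genotype test, 3 were higher and 2 lower on all days, and their medians were -0.01, 0.09 and 0.08. Atoh1, the master factor of the secretory lineage, gave 344, 292 and 337 for L/L by day, against 351, 430 and 357 for KO. Its differences were 0.03, 0.55 and 0.08, and as for Agr2 the day 3 pools held both the lowest L/L and the highest KO value (mean 0.22; limma adjusted p = 0.457). Spdef, the goblet maturation factor, differed by 0.12, 0.37 and 0.12. Foxa3 (mean 0.28), a forkhead factor of goblet cells, and Klf4 (0.10), a factor of goblet cell differentiation, were the other regulators named. Without day 5 Foxa3 was at 0.14 and Klf4 at 0.0095, and without day 3 Atoh1 was at 0.06 and Spdef at 0.12.

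Mucin assembly genes were mixed. Of 27 genes tested for O-glycosylation, 4 were higher and 6 lower in KO on all 3 days, with medians of -0.04, -0.04 and -0.10 and 0 calls in either genotype test. St3gal4, a sialyltransferase that caps glycans, read 8408, 9285 and 7234 for L/L by day, against 6287, 5745 and 3349 for KO, every KO value below every L/L value. Its mean difference of -0.74 ± 0.35 (SD over 3 days) did not pass limma (adjusted p = 0.356). Uap1 (-0.28), which makes the sugar donor UDP-N-acetylglucosamine, Galnt3 (0.23), which starts O-glycan chains, and B4galnt2 (-0.22), which adds terminal N-acetylgalactosamine, had smaller mean differences. Without day 5 they were -0.10 for Uap1, 0.06 for Galnt3 and -0.12 for B4galnt2. Among 22 genes of folding and early secretion 6 were higher and 1 lower on all days, with medians of 0.02, 0.08 and 0.07 and 0 calls. Mean differences were 0.23 for Agr3, the paralogue of Agr2, 0.22 for Kdelr3, 0.22 for Dnajc10 and 0.20 for Qsox1. Without day 5 they were 0.15, 0.11, 0.10 and 0.12, and Qsox1 was at 0.08 with the mean of its probe sets.

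Among 16 genes of mucus release and processing, 0 passed over the 3 days and 2 fell with day in KO relative to L/L (1.23% of all genes passed in either direction). Dmbt1, a mucosal scavenger glycoprotein, read 6568, 6767 and 7388 for L/L by day, against 5212, 4131 and 485 for KO (-1.26 per day, SE 0.13; limma adjusted p = 0.0373). Nlrp6, an inflammasome receptor linked to goblet cell exocytosis, read 1054, 1228 and 1239 for L/L, against 1081, 992 and 601 for KO (-0.36 per day, SE 0.05; limma adjusted p = 0.0434). Both calls were lost without the intensity filter (adjusted p = 0.169), and that of Dmbt1 with the trend and robust settings (adjusted p = 0.195). Mep1a (0.27), a subunit of the meprin proteases of the brush border, and Rab27a (0.23), a GTPase of granule secretion, were higher on average in KO without passing; without day 3 Mep1a was at 0.19, and without day 5 Rab27a at 0.10.

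Other mucins were dim. Of 10 written, 7 had a probe set of a single gene and 5 passed the filter, none above an intensity of 115. A genotype test was passed by 0 of 5. Muc4, a membrane mucin, had the largest mean difference (-0.34), with 94.0, 115 and 103 for L/L by day, against 93.1, 87.5 and 66.9 for KO. It was at -0.16 without probe sets shared between transcripts and at -0.20 without day 5. Muc20 (0.06), Muc5ac (-0.03) and Muc16 (-0.01) lay close to 0. Of the type 2 cytokine axis, which drives goblet cell expansion, 6 of 11 genes were bright enough and 0 passed, with medians of 0.01, 0.02 and 0.06. Il4ra, the shared receptor chain for interleukin-4 and interleukin-13, had a mean difference of 0.31, which was 0.19 with the mean of its probe sets and 0.16 without day 5. Retnla was at 0.15, Il33 at -0.11 and Stat6 at -0.04.

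**Figure D4:**
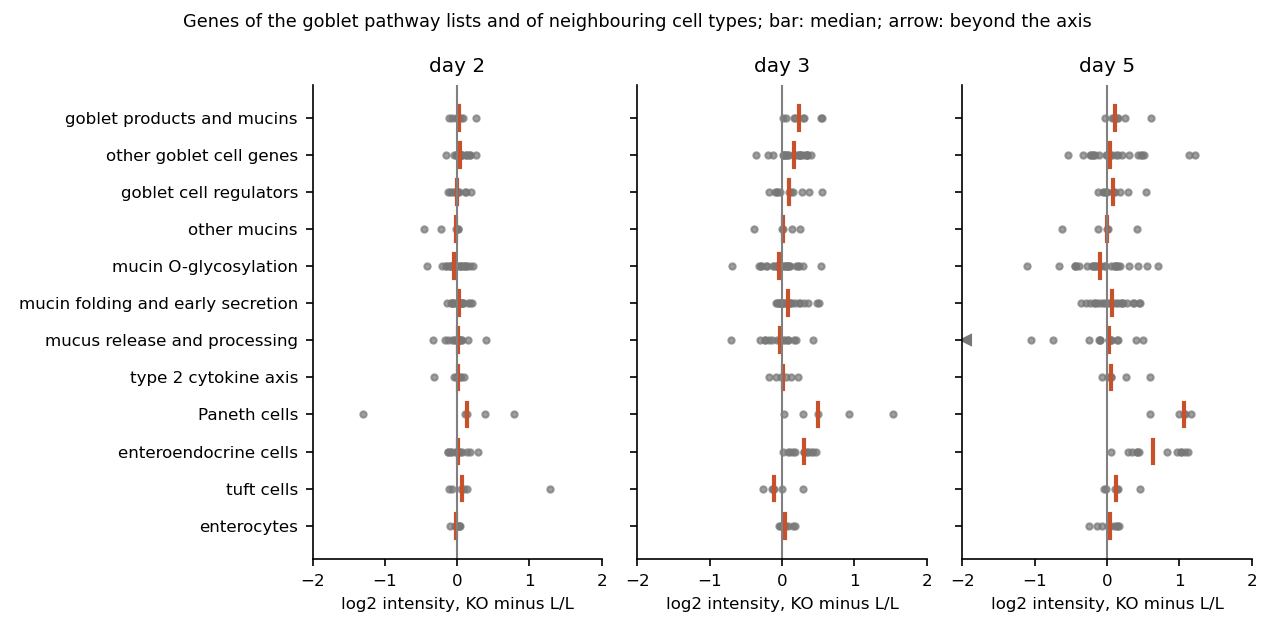
KO minus L/L log2 intensity (horizontal axis, cut at 2 in either direction) of single genes (grey points) in each list on days 2, 3 and 5, with the list median as an orange bar; the arrow on day 5 is Dmbt1 (-3.93). Medians of the goblet lists stay near 0 on day 5 (0.11 for goblet products and mucins), while those of Paneth (1.07) and enteroendocrine genes (0.64) lie to the right. The Paneth median rests on 5 genes measured of 11 written, and the goblet products and mucins include the membrane mucins Muc3 and Muc13.

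Markers of 2 other secretory cell types had summed KO intensities above those of L/L on every array. The summed intensity of 5 Paneth cell genes measured of 11 written was 22851 to 24495 in L/L and 27887 to 39180 in KO. That of 12 enteroendocrine genes of 12 was 6242 to 8791 and 8972 to 11227. The Paneth sums mostly follow 1 gene, Lyz1, at 15270.8 to 16146.5 in L/L and 17404.5 to 23007.5 in KO. Paneth genes had mean differences of 0.83 for Itln1, 0.62 for Ang4, 0.54 for Mmp7 and 0.44 for Pla2g2a, and 0 passed a genotype test. Without day 5 Ang4 was at 0.40 and Mmp7 at 0.31. Pla2g2a varied most by day, at -1.30, 1.53 and 1.07, and its mean was -0.11 without day 3. For 4 of the 12 enteroendocrine genes, Gcg, Gip, Chgb and Chga, KO minus L/L rose with day by limma (adjusted p between 0.0454 and 0.0469). Of all genes, 1.23% passed in either direction. These calls were lost without the intensity filter, where 0 genes passed (2475 at an unadjusted p under 0.05 in limma). From day 2 to day 5 the median change of the 12 genes was -0.52 in L/L and 0.15 in KO, so the L/L values fell by more than the KO values rose. The enteroendocrine genes with the largest means differed most on day 5, at 1.12 for Gcg, 1.08 for Gip, 1.02 for Chgb and 0.96 for Sst. Their means were 0.56, 0.47, 0.46 and 0.43, and without day 5 they were 0.28, 0.17, 0.19 and 0.16. The 8 goblet products and mucins summed to 86065 to 94529 in L/L and 94023 to 97278 in KO, so their totals overlapped. That total includes the membrane mucins Muc3 and Muc13, and Muc13 was brightest on the L/L array of day 2 (8432). A total of the secreted goblet products alone was not taken, so the overlap does not set goblet cells apart from the other secretory types. Medians for enterocytes were -0.01, 0.04 and 0.04. The part of Paneth or enteroendocrine cells in the Spink4 and Muc2 values was not tested.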

How the data were processed

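RNA pools of small intestine, 1 per genotype and day, were hybridised as biotin-labelled cRNA to Affymetrix arrays, per the labels. Values as deposited are a processed intensity for each probe set and array, on a linear scale (3.82 to 31146). Partek and RMA are named in the submitters' processing notes, without versions or order; how the arrays were normalized is otherwise not stated in what was used here. Log2 was taken with no offset and no further scaling. Of 45101 probe sets (64 controls), 34945 had 1 gene, 932 several and 9160 were not listed in the platform annotation; 34741 symbols were updated by gene ID to GRCm38.p6. The brightest probe set per gene was used, and genes were kept when their mean log2 exceeded the 40th percentile of non-control probe sets (5.28, an intensity of 38.9), leaving 13042 genes.

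Limma 3.58.1 (R 4.3.3; lmFit, eBayes, two-sided, Benjamini-Hochberg over all 13042 genes, threshold 0.05) fitted day as a factor plus genotype, with 2 residual degrees of freedom and a prior of 3.03. The change with day was the product of genotype and centred day, with 1 residual degree of freedom. The same additive fit gave day differences over both genotypes. Single-day values and days within L/L have no replicate; they were counted at 1.5-fold. SD is over the 3 daily differences, SE that of limma. Both fits were also run on simulated data with known changes and independent noise, where only the direction of the changes had to be recovered.

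Members and gene lists were chosen with earlier results of these data known. All 9 members were named, and from each list up to 4 tested genes with the largest absolute mean difference. Chga and Lyz1 were named outside that rule, after their values were seen. Promoter motifs were searched on both strands of RefSeq sequences. Alternatives covered probe set choice, the filter, an offset of 32, centring, cyclic loess, eBayes settings, terms of the fit and leaving out each day; raising dim intensities to the threshold was added after seeing the data.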

Additional observations from a re-analysis of the deposited data

Results flagged for a closer look

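For 4 of the 8 tested genes the sign of KO minus L/L on a later day was opposite to that on day 2; with 1 array per genotype and day these differences between days were not tested. Fcgbp differed by 0.31 on day 3 and 0.091 on day 5, against -0.07 on day 2. Muc13 differed by 0.17 on day 3 and 0.13 on day 5, against -0.11 on day 2. Zg16 differed by 0.051 on day 3 and 0.072 on day 5, against -0.02 on day 2. Muc3 differed by -0.033 on day 5, against 0.05 on day 2.

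In 3 genes of the wider goblet cell lists the genotype difference itself changed with day in the limma test. The change per day was 0.39 for Bace2 (adjusted p = 0.0404), -1.26 for Dmbt1 (adjusted p = 0.0373) and -0.36 for Nlrp6 (adjusted p = 0.0434). The fit has 3 days and 1 residual degree of freedom.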

How the results depend on the processing

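In 304 refits of single members under other settings, 298 kept the direction of the value reported and 0 passed the threshold. Many of these refits could not change direction. Settings of the filter, of eBayes and of the terms of the fit left each value as it was. So did the choice of probe set for members with 1 probe set. The count of 298 is therefore no measure of robustness. The 6 that reversed were all near 0. The genotype difference of Muc3 was -0.000604 with arrays centred on the median and ran from -0.0083 (without day 2) to 0.033 when single days were left out. Day 3 minus day 2 became 0.026 for Muc2 and 0.0092 for Agr2 with centring, and day 5 minus day 2 became 0.0056 for Agr2 with the mean of probe sets and 0.017 for Zg16 with cyclic loess. Among other named genes, leaving out single days gave genotype differences of both signs for Muc5ac (-0.17 to 0.061), Muc16 (-0.23 to 0.21), Il33 (-0.17 to 0.0014), Stat6 (-0.096 to 0.022) and Pla2g2a (-0.11 to 1.30); the cause was not tested. The count of members at 1.5-fold on day 5 was 0 with centring and 0 at 2-fold, and on day 3 it was 1 with cyclic loess (Agr2, 0.59). For L/L from day 2 to day 5 it was 0 at 2-fold, and from day 3 to day 5 it was 1 without probe sets shared between transcripts (Muc13, -0.73). Over all genes, calls for the genotype difference ranged from 0 (without day 3; 606 at an unadjusted p under 0.05 in limma) to 3, and calls for its change with day from 0 (no filter; 2475 at an unadjusted p under 0.05 in limma) to 543 (offset of 32), against 160. Coding the change with day as day 5 against day 2 left no residual degrees of freedom, so it gave values with no test. Signal over background limits Retnlb, and single pools limit every daily value. The reported fit pairs the genotypes by day; without the day term 3 genes and 0 members were called for the genotype difference.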
